A study of Mus musculus with 8 samples.

Results

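The 10 genes described here encode the AMPA receptor and proteins that travel with it: the pore-forming subunits Gria1, Gria2, Gria3 and Gria4, the transmembrane AMPA receptor regulatory proteins (TARPs) Cacng2, Cacng3 and Cacng8, the cornichon homologs Cnih2 and Cnih3, and the CKAMP protein Shisa9. They were taken from the deposited table of read counts by symbol, and all 10 matched 1 Ensembl identifier each among the 32726 identifiers of the table. Poly-A RNA was sequenced from cultured mouse neurons of 2 genotypes, Nuak1 KO (4 libraries, KO1 to KO4) and wild type (WT, 4 libraries, WT1 to WT4). The study's stated aim for its sequencing was to find how the kinase NUAK1 acts on mitochondria in axons. The neurons came from E15.5 embryos on a C57Bl/6JRj background and were kept for 5 days in serum-free medium. The study describes its Nuak1 KO mice as constitutive, so in a KO culture glia carry the same allele as neurons. The study's methods give 4 animals per condition, and the tissue label of every library reads cortex or hippocampus. The labels also give a sequencing lane (A for KO1, KO4, WT1 and WT3, B for the other 4 libraries) and a strain label whose meaning is not explained (BJ for KO1, KO2 and KO3, BK for KO4, WT2 and WT4, BO for WT1 and BQ for WT3).

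AMPA receptors carry most of the fast excitatory current at central synapses. Each receptor is a tetramer of GRIA subunits, and its kinetics, calcium permeability and route to the surface depend on which subunits it holds and on the auxiliary proteins bound to it. GRIA2 makes the channel nearly impermeable to calcium because its mRNA is edited at 1 glutamine codon of the pore, the Q/R site, by the enzyme encoded by Adarb1. TARPs slow the closing of the channel and anchor it at the postsynaptic density, cornichons act on export from the endoplasmic reticulum and on gating, and SHISA9 modulates desensitization. In young forebrain neurons the receptor is present before most synapses have formed.

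The stretch around the Q/R site is shown because it is where the subunits that follow differ in function, although a table of counts per gene can show neither the editing nor the flip and flop splice forms. Each line gives 30 bases of the coding strand of a GENCODE M1 transcript, 5′ to 3′, and the capitals mark the glutamine codon of the Q/R site as the genome encodes it. The codon is number 600 in Gria1, 607 in Gria2, 612 in Gria3 and 608 in Gria4, counted from the start codon.
Gria1: ggggccttcatgCAGcaaggatgtgacatt
Gria2: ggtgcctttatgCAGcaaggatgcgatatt
Gria3: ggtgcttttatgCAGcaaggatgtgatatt
Gria4: ggtgcctttatgCAAcaaggatgtgacatt
Gria2 and Gria3 were identical at 28 of the 30 bases, and the other pairs at 26 or 27. The genomic codon was CAG in Gria1, Gria2 and Gria3 and CAA in Gria4, so before editing all 4 encode glutamine. Adarb1, which encodes the editing enzyme, had a mean of 101.5 CPM (the count scaled by the library total) in the KO libraries and 102 CPM in the WT libraries, with a log2 fold change of −0.02 (edgeR quasi-likelihood test, adjusted p = 0.929).

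The ends of the coding sequences are shown because they carry the motifs through which the proteins bind scaffolds, and the genes of those scaffolds are given further down. The capitals mark the last 4 sense codons, followed by the stop codon. GRIA2 and GRIA3 share a tail that binds GRIP1 and PICK1, the GRIA1 tail binds SAP97, and the TARP tails and that of SHISA9 bind PSD-95.
Gria1: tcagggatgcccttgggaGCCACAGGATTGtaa
Gria2: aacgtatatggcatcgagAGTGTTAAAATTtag
Gria3: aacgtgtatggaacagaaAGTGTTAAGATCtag
Cacng2: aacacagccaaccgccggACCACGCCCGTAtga
Cacng3: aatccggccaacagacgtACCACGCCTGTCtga
Shisa9: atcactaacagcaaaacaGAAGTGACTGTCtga
The ends of Gria4, Cnih2 and Cnih3 are not printed here, no complete coding sequence was available for Cacng8, and no protein sequences are printed.

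Library totals ranged from 31247078 to 67155004 counts. Nuak1 counts were 86 to 102 in KO and 1612 to 4598 in WT cultures, a log2 fold change of −4.90 (edgeR, adjusted p = 1.38e-07). KO1 and WT1 stood apart from the other 6 libraries: on the surrogate variable, a term estimated from all genes and fitted beside genotype, they lay at −0.56 and −0.62 and the others between 0.05 and 0.38. Xist had 95 and 105 counts in KO3 and WT4 and at least 113092 in the others, and the Y-linked Ddx3y had 4192 and 3259 counts there and at most 4 in the others. The 11 glutamatergic neuron markers summed to 4613 to 5400 CPM per KO library and 4740 to 5222 CPM per WT library, mostly from Map2, which all neurons express. The glutamate transporter gene Slc17a7 lay between 65.4 and 121 CPM in KO libraries and between 104 and 139 CPM in WT libraries. In the same order, the summed ranges were 217 to 355 and 195 to 322 CPM for 10 interneuron markers (most abundant Gad1), 1017 to 1903 and 1062 to 1624 CPM for 10 astrocyte markers (Slc1a3), 536 to 625 and 502 to 603 CPM for oligodendrocyte precursor markers (Pdgfra), and 3.44 to 45.8 and 4.41 to 21.2 CPM for 10 microglia markers (Cx3cr1), among which P2ry12 and Tmem119 stayed under 1 CPM in every library. For 8 progenitor markers (most abundant Nes) they were 369 to 457 and 279 to 384 CPM, and for 10 hippocampal markers (Spock1) 634 to 719 and 642 to 768 CPM. No gene of these lists passed the adjusted threshold.

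All 10 genes were expressed in every library and entered the test with 16272 genes. None passed an adjusted p of 0.05, the threshold that 0.0492% of all tested genes passed (0.0369% lower and 0.0123% higher in KO). At an unadjusted p under 0.05, 1 of the 10 was lower in KO (Gria2) and 1 higher (Cnih3), beside 5.78% and 4.71% of all tested genes. The log2 fold change was below 0 for 6 of the 10 and for 46.6% of all tested genes, with a median of −0.07 for the 10 and 0.01 for all tested genes. KO and WT libraries overlapped in CPM for every one of the 10, whereas 0.86% of tested genes were lower in all KO than in all WT libraries and 1.54% were higher. With library totals adjusted by TMM scaling these shares were 1.12% and 1.17%, and every one of the 10 still overlapped. In bulk cultures, fewer cells of a type and less RNA per cell cannot be told apart.

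**Figure D1:**
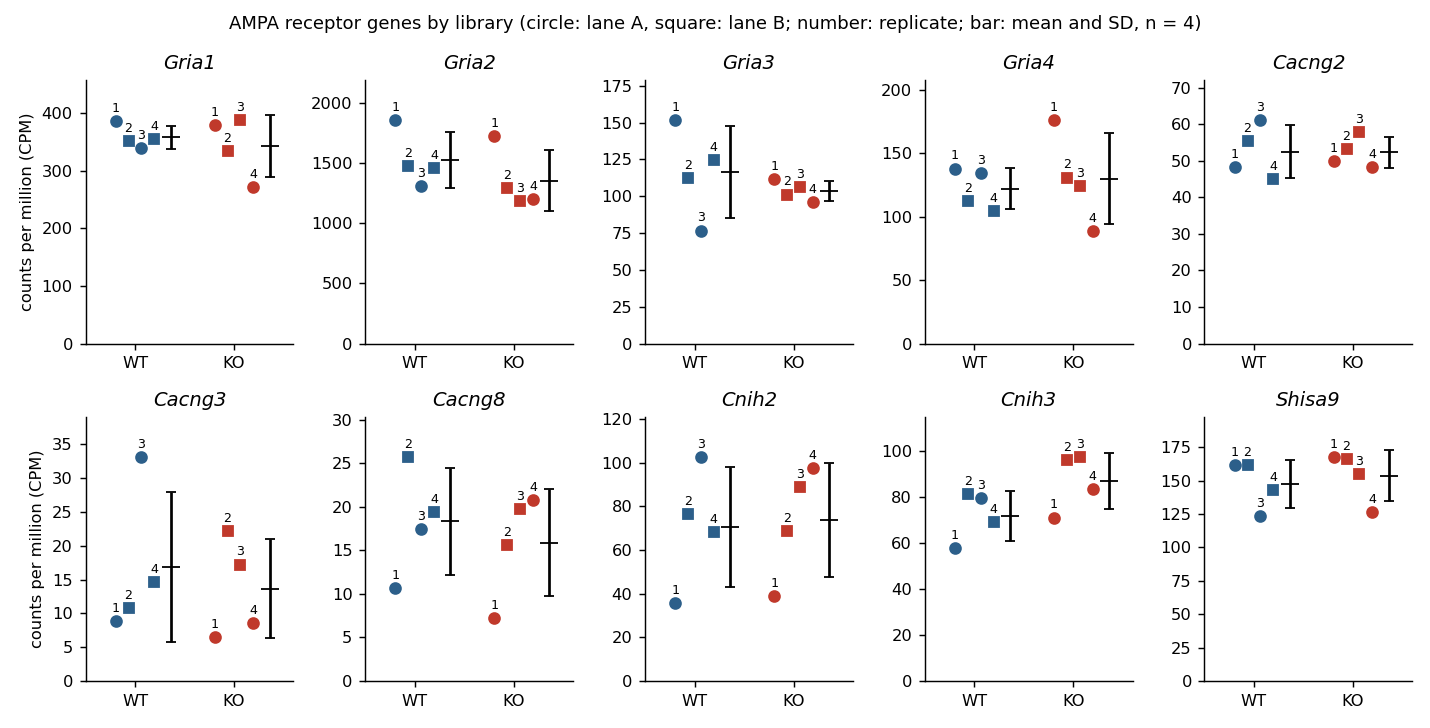
CPM of each AMPA receptor gene in the 4 WT (blue) and 4 KO (red) libraries, with the replicate number beside each point, circles for lane A, squares for lane B, and a bar for the mean ± SD. The genotypes overlap in all 10 panels, and replicate 1 of both genotypes lies highest for Gria2 and lowest for Cnih2.

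Gria2 (ENSMUSG00000033981, chromosome 3, 80681450 to 80804227 in GRCm38) was the most abundant of the pore-forming subunits. Its level was 1726, 1297, 1188 and 1199 CPM in KO1 to KO4 and 1860, 1473, 1312 and 1464 CPM in WT1 to WT4. Replicate 1 was the highest library of both genotypes, KO2, KO3 and KO4 all lay below the lowest WT library, and KO1 alone reached into the WT range. KO libraries averaged 1352 ± 254 CPM and WT libraries 1527 ± 234 CPM (SD, n = 4 per genotype). With the surrogate variable in the model the log2 fold change was −0.23 ± 0.07 (SE), with a 95% interval of −0.40 to −0.06 (edgeR, adjusted p = 0.367). Gria2 was at rank 509 by p among the tested genes.

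The overlap of the genotypes for Gria2 came from KO1 alone. Once the fitted part of the surrogate variable was taken out of the log2 CPM, Gria2 lay between 10.30 and 10.42 in the KO libraries and between 10.54 and 10.69 in the WT libraries and no longer overlapped. That was a property of 4.52% of tested genes in the lower direction, and of none of the other 9 members. Without a surrogate variable the Gria2 log2 fold change was −0.21 ± 0.16, and with KO1 and WT1 left out as well, again without a surrogate variable, it was −0.24 ± 0.11 (edgeR, adjusted p = 0.980). In neither fit was the unadjusted p under 0.05. DESeq2 with the surrogate variable gave −0.24 ± 0.07 and the smallest adjusted p of any alternative for Gria2, 0.0510, where 1.23% of genes with an adjusted p were called.

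Gria1 (ENSMUSG00000020524, chromosome 11, 57011571 to 57330244), the subunit added to synapses during plasticity, followed Gria2 in level. It had 379, 334, 388 and 271 CPM in KO1 to KO4 and 385.5, 352, 339 and 355 CPM in WT1 to WT4. The WT libraries lay close together, and the KO libraries spread to both sides of them, with KO3 highest and KO4 lowest of all 8. For Gria1 the log2 fold change was −0.11 ± 0.09, with a 95% interval of −0.31 to 0.10 (edgeR, adjusted p = 0.711), and it was below 0 in all 23 alternatives tried. Its size was not stable: it was −0.03 ± 0.08 without KO4, −0.20 ± 0.08 without KO3, where the unadjusted p was under 0.05, and −0.40 ± 0.17 with a strain label term and no surrogate variable.

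Gria3 (ENSMUSG00000001986, chromosome X, 41400819 to 41678601) forms heteromers with Gria2 and is the X-linked subunit. It had 112, 101, 107 and 95.9 CPM in KO1 to KO4 and 152, 112, 76.8 and 125 CPM in WT1 to WT4. Here the KO libraries lay close together and the WT libraries held both the highest (WT1) and the lowest (WT3) of all 8. KO and WT differed by a log2 fold change of −0.19 ± 0.13 (95% interval −0.47 to 0.10, edgeR, adjusted p = 0.620).

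The Gria3 difference depended on single libraries of both genotypes. Without KO1 it was −0.07 ± 0.12 (adjusted p = 0.888). Without WT3 the log2 fold change was −0.33 ± 0.06 with an adjusted p of 0.0449, the only adjusted call of any of the 10 genes in any alternative, in a fit that called 0.694% of all tested genes. In the other alternatives it was between −0.32 and −0.08, the latter without KO1 and WT1 (± 0.16) in a fit that also dropped the surrogate variable. KO3 and WT4, the libraries with Y-linked counts, had 107 and 125 CPM of Gria3, inside the range of the other libraries of their genotype, and leaving them out gave −0.18 ± 0.14 (adjusted p = 0.713).

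Gria4 (ENSMUSG00000025892, chromosome 9, 4417893 to 4796234), a subunit with fast kinetics that is abundant in young neurons and interneurons, had 176, 131, 125 and 88.7 CPM in KO1 to KO4 and 138, 112, 134 and 105 CPM in WT1 to WT4. Both the highest and the lowest library were KO, and the WT libraries lay between them. The fitted difference in Gria4 was 0.01 ± 0.14 on the log2 scale (95% interval −0.32 to 0.33, edgeR, adjusted p = 0.990), and its sign was reversed in 10 of the 23 alternatives. The span of the annotated gene Gm46101 overlaps that of Gria4. Whether they share a stretch that was counted was not examined, and nothing states whether strand was used to count reads.

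**Figure D2:**
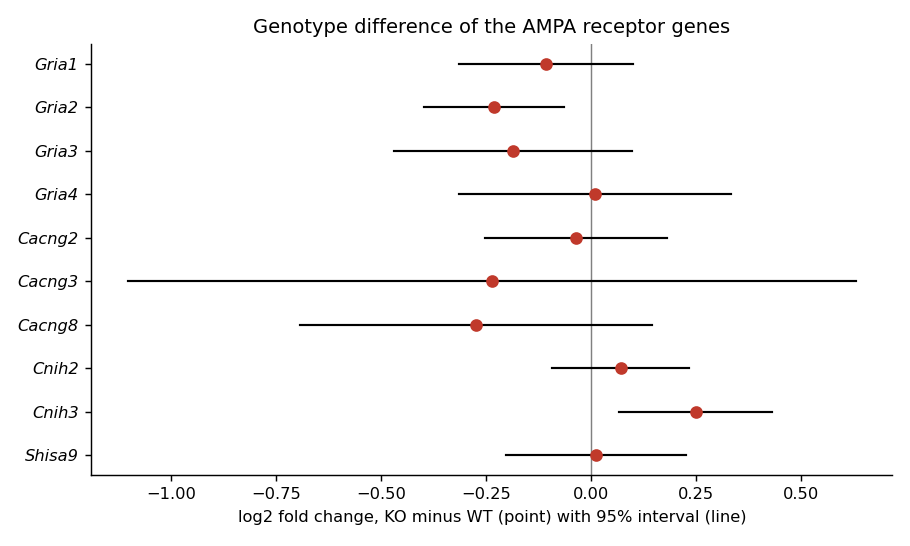
Log2 fold change of KO against WT for each of the 10 genes (point) with its 95% interval (line), from edgeR with 1 surrogate variable. The intervals of Gria2 (−0.40 to −0.06) and Cnih3 (0.07 to 0.43) leave out 0, and that of Cacng3 is the widest (−1.10 to 0.63).

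Levels of different genes can be compared only per length, and this was done for the 4 pore-forming subunits with the union of exons in GENCODE M1. On that scale Gria2 had 194 ± 36.5 CPM per kilobase in KO and 219.6 ± 33.6 in WT, Gria1 had 56.7 ± 8.82 and 59.2 ± 3.27, Gria4 had 20.8 ± 5.74 and 19.5 ± 2.61, and Gria3 had 10.5 ± 0.682 and 11.8 ± 3.16 (SD, n = 4 each). Gria2 and then Gria1 were highest in each of the 8 libraries. Gria4 lay above Gria3 in all 8 on this scale, but with the longest transcript, the coding length or no length correction Gria3 lay above Gria4 in 4 of them (KO4, WT1, WT2 and WT4), so the order of these subunits depended on the length used. Gria2 supplied 70.9%, 68.3%, 64.3% and 71.5% of the summed Gria reads per kilobase in KO1 to KO4 and 72.5%, 70.8%, 68.9% and 70.5% in WT1 to WT4.

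The mean Gria2 share was 68.7 ± 3.26% in KO and 70.7 ± 1.499% in WT, a difference of −1.92 percentage points that was smaller than the spread among the KO libraries. KO3, with 64.3%, lay below all other libraries, KO2, with 68.3%, lay just below the lowest WT library (WT3, 68.9%), and KO1 and KO4 lay inside the WT range. Gria1 supplied 20.2 ± 2.80% in KO and 19.2 ± 1.35% in WT, Gria4 7.26 ± 0.957% and 6.34 ± 0.999%, and Gria3 3.77 ± 0.388% and 3.77 ± 0.646%. In raw counts, with no length correction, the lowest Gria2 share was 65.8% in KO3 (95% Wilson interval 65.5 to 66.1%) and the highest 73.4% in WT1 (73.1 to 73.7%). These intervals cover counting error only. The KO minus WT difference in the Gria2 share lay between −1.94 and −1.80 points with the longest transcript, the coding length or no length correction.

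**Figure D3:**
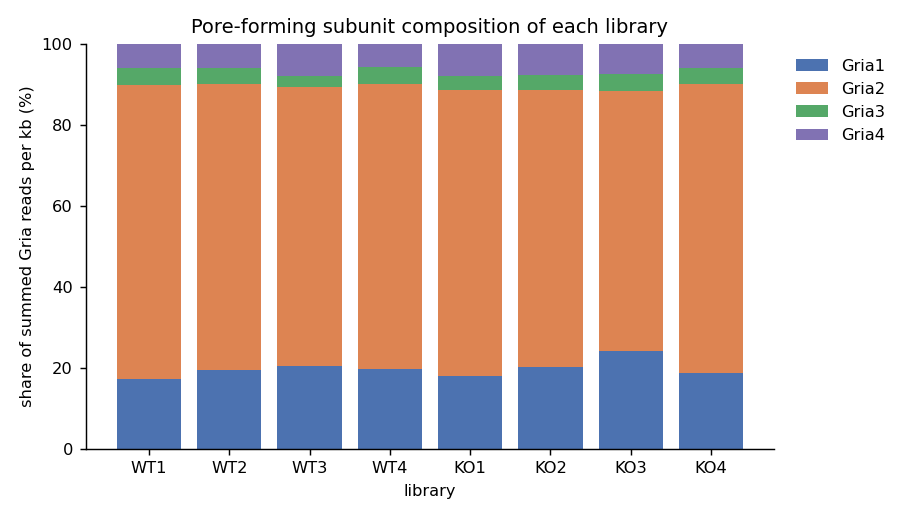
Share of each pore-forming subunit gene in the summed Gria counts per kilobase of exon, in percent, for the 4 WT and 4 KO libraries. Gria2 makes up 64.3 to 72.5% of every bar, and KO3 has the smallest Gria2 and the largest Gria1 share (24.2%).

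Among the TARPs, Cacng2 (ENSMUSG00000019146, chromosome 15, 77991919 to 78120220), which encodes stargazin, was the steadiest. It had 49.95, 53.2, 57.9 and 48.3 CPM in KO1 to KO4 and 48.4, 55.3, 61.2 and 45.0 CPM in WT1 to WT4. The genotypes interleaved throughout, with WT3 highest and WT4 lowest. Its log2 fold change was −0.04 ± 0.10 (95% interval −0.25 to 0.18, edgeR, adjusted p = 0.920), and the sign was reversed in 4 of the 23 alternatives. The genes A730060N03Rik and Gm46520 overlap Cacng2 in the annotation.

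Cacng8 (ENSMUSG00000053395, chromosome 7, 3394042 to 3416266), the TARP best known from the hippocampus, had 7.24, 15.6, 19.7 and 20.7 CPM in KO1 to KO4 and 10.7, 25.7, 17.5 and 19.4 CPM in WT1 to WT4. Replicate 1 was the lowest library of both genotypes and WT2 the highest of all. The log2 fold change of −0.27 ± 0.18 was the most negative of the 10 genes, but its 95% interval ran from −0.69 to 0.14 (edgeR, adjusted p = 0.621). It was below 0 in all 23 alternatives, between −0.44 and −0.02, and single libraries moved it both ways. Without WT3 it was −0.44 ± 0.11 (adjusted p = 0.0938), whereas without WT2 it was −0.12 ± 0.17 (adjusted p = 0.845), without KO1 −0.16 ± 0.20 and without WT1 −0.18 ± 0.22. Gm23450 overlaps Cacng8 in the annotation.

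Cacng3 (ENSMUSG00000066189, chromosome 7, 122671744 to 122769393), a forebrain TARP close to stargazin in sequence and function, varied most of the 10. It had 6.55, 22.1, 17.2 and 8.58 CPM in KO1 to KO4 and 8.83, 10.8, 33.1 and 14.6 CPM in WT1 to WT4, a 5.05-fold range. WT3 was highest, KO1 lowest, and KO2 and KO3 lay above 3 of the 4 WT libraries. A log2 fold change of −0.24 ± 0.38 was fitted (95% interval −1.10 to 0.63, edgeR, adjusted p = 0.855).

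The Cacng3 libraries divided by sequencing lane. On lane A both KO libraries (6.55 and 8.58 CPM) lay below both WT libraries (8.83 and 33.1 CPM), a log2 fold change of −1.47 by edgeR without a surrogate variable, with an unadjusted p over 0.05. On lane B both KO libraries (22.1 and 17.2 CPM) lay above both WT libraries (10.8 and 14.6 CPM), a log2 fold change of 0.57 (adjusted p = 0.170) with an unadjusted p under 0.05. The interaction of genotype and lane, a fit added after these values had been seen, was 2.06 on the log2 scale (edgeR, adjusted p = 1). Separation in opposite directions on the lanes was found for 398 genes, 2.45% of those tested, and an unadjusted interaction p under 0.05, which Cacng3 had, for 1.57%, with none past the adjusted threshold. Each lane held 2 libraries of each genotype, and the lane and the libraries on it cannot be told apart.

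For the other members the fitted difference between lanes was smaller. Gria2 had a log2 fold change of −0.15 on lane A and −0.31 on lane B, and Gria3 had −0.17 and −0.26. On lane B the KO libraries of Gria2 and Gria3 lay below, and those of Gria4 and Cnih3 above, both WT libraries, whereas on lane A they overlapped for every member but Cacng3. Of all tested genes, 12.2% were lower and 30.6% higher in both KO than in both WT libraries of lane B, against 7.47% and 9.34% on lane A. These shares rest on CPM scaled by library totals alone. In the edgeR fit of lane B, which used TMM scaling, 5.6% of genes were lower and 5.6% higher at an unadjusted p under 0.05. None of the 9 members other than Cacng3 had an unadjusted interaction p under 0.05.

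Cnih3 (ENSMUSG00000026514, chromosome 1, 181350459 to 181460641) was the member with a higher level in KO at an unadjusted p under 0.05. It had 71.0, 96.1, 97.1 and 83.4 CPM in KO1 to KO4 and 57.6, 81.0, 79.5 and 69.1 CPM in WT1 to WT4. Within each genotype replicate 1 was lowest, KO2, KO3 and KO4 lay above every WT library, and KO1 lay above WT1 and WT4 only. KO libraries averaged 86.9 ± 12.3 CPM and WT libraries 71.8 ± 10.8 CPM (SD, n = 4 per genotype), a log2 fold change of 0.25 ± 0.08 with a 95% interval of 0.07 to 0.43 (edgeR, adjusted p = 0.371). The direction held in all 23 alternatives, between 0.13 and 0.30, and the unadjusted p stayed under 0.05 with each library left out in turn. It was over 0.05 in 5 alternatives: without KO3 and WT4 (0.19 ± 0.10), where a surrogate variable was kept, and in 4 fits that had none, namely without a surrogate variable alone (0.24 ± 0.15), with KO1 and WT1 also left out (0.23 ± 0.10), with a strain label term (0.13 ± 0.24) and on lane A (0.16 ± 0.26). Gm16547 overlaps Cnih3 in the annotation.

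Cnih2 (ENSMUSG00000024873, chromosome 19, 5092868 to 5098521), the cornichon found with GRIA subunits in hippocampal neurons, had 39.0, 68.5, 88.9 and 97.7 CPM in KO1 to KO4 and 35.6, 76.5, 102 and 68.1 CPM in WT1 to WT4. The libraries of replicate 1 lay far below the other 6 in both genotypes, and the rest interleaved. Between genotypes the log2 fold change was 0.07 ± 0.07 (95% interval −0.09 to 0.23, edgeR, adjusted p = 0.758). It was 0.03 ± 0.08 without KO4, 0.14 ± 0.09 without WT1 and 0.42 ± 0.42 with a strain label term and no surrogate variable. The ratio of Cnih2 to Cnih3 counts was 0.838 ± 0.268 in KO and 0.959 ± 0.275 in WT, between 0.550 in KO1 and 1.29 in WT3. Yif1a overlaps Cnih2 in the annotation.

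Shisa9 (ENSMUSG00000022494, chromosome 16, 11983593 to 12270904), which encodes CKAMP44, had 168, 166, 155 and 127 CPM in KO1 to KO4 and 162, 162, 124 and 143 CPM in WT1 to WT4. Its range over the 8 libraries, 1.36-fold, was the smallest of the 10, and KO4 and WT3 were the lowest libraries of their genotype. The log2 fold change was 0.01 ± 0.10 (95% interval −0.20 to 0.23, edgeR, adjusted p = 0.978). Gm32278 overlaps Shisa9 in the annotation.

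Across the 10 genes the libraries of replicate 1 differed from the rest in a way that crossed the genotypes. KO1 and WT1 were each the highest library of their genotype for Gria2, Gria3 and Gria4 and the lowest for Cacng3, Cacng8, Cnih2 and Cnih3. The 6 auxiliary genes together had 14.3 counts per 100 Gria counts in KO1 and 12.7 in WT1, and 22.7, 24.1 and 23.3 in KO2 to KO4 and 20.1, 22.4 and 17.5 in WT2 to WT4. The means were 21.1 ± 4.58 in KO and 18.2 ± 4.14 in WT, a difference smaller than either SD. The genotypes overlapped, with 14.3 to 24.1 in KO and 12.7 to 22.4 in WT. With replicate 1 set aside, a split that was not planned, KO2, KO3 and KO4 lay above WT2, WT3 and WT4. The closest of these were KO2 (22.65) and WT3 (22.41). This comparison of the libraries was not tested. The neuronal tubulin Tubb3, named after its values were seen, was also lowest in replicate 1 of both genotypes. It had 299 CPM in KO1, 252 CPM in WT1 and 726 to 1342 CPM in the other 6 libraries. Its part in these results was not tested. Map2 went the other way, with 3580 CPM in KO1 and 3877 CPM in WT1, each the highest of its genotype. The 11 glutamatergic neuron markers, which include both genes, summed to 4781 CPM in KO1 and 5026 CPM in WT1. Both sums lay inside the range of the other libraries of their genotype. KO4 was the lowest KO library for Gria1, Gria3, Gria4, Cacng2 and Shisa9.

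**Figure D4:**
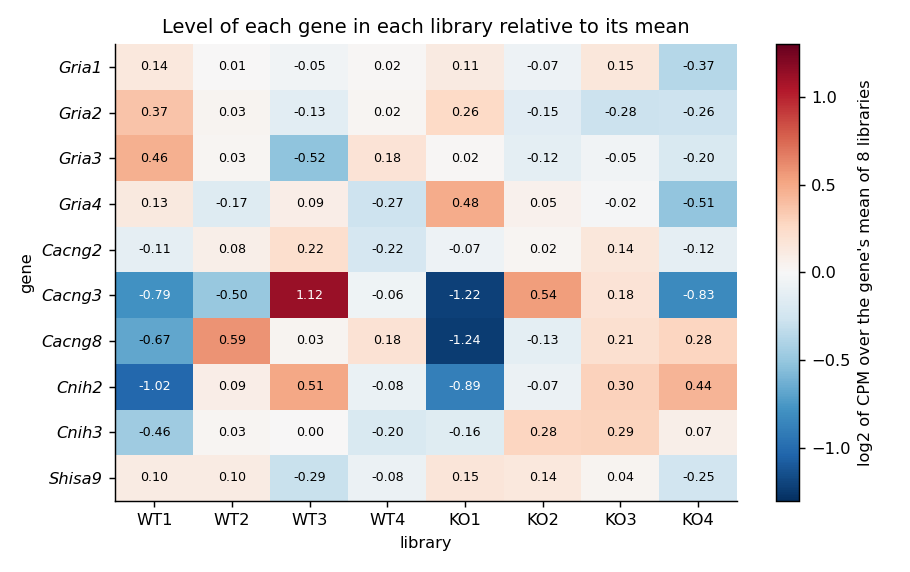
Log2 of the CPM of each gene in each library over the gene's mean of the 8 libraries, from blue (lower) to red (higher). The columns WT1 and KO1 share the lowest values of Cnih2 (−1.02 and −0.89) and positive values of Gria2 (0.37 and 0.26), and WT3 holds the highest Cacng3 value (1.12).

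Other proteins of AMPA receptor biogenesis and gating were covered by a list of 25 genes, of which 24 had an identifier and 23 were tested. None passed the adjusted threshold, 2 were lower in KO at an unadjusted p under 0.05 and none higher, 13 had a log2 fold change below 0, and the median was −0.02. Of all tested genes, 5.78% were lower and 4.71% higher by that rule, and 46.6% were below 0. The 2 were Dnajc13, an endosomal chaperone (139 ± 12.9 CPM in KO, 151 ± 21.4 in WT, −0.16 ± 0.06, edgeR, adjusted p = 0.405), and the phosphoinositide phosphatase gene Sacm1l (−0.16 ± 0.07, adjusted p = 0.468). Frrs1l, needed for assembly of the receptor in the endoplasmic reticulum, had 136 ± 21.6 CPM in KO and 151 ± 22.7 in WT (−0.20 ± 0.09, adjusted p = 0.477). The olfactomedin genes had −0.20 ± 0.09 for Olfm2 (adjusted p = 0.477) and −0.71 ± 0.35 for Olfm3 (adjusted p = 0.517), the latter at 4.47 and 7.05 CPM with WT3 at 11.8 CPM.

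Scaffolds, kinases and motors that hold, phosphorylate or carry the receptor made up a list of 35 genes, all tested. None passed the adjusted threshold, none was lower and 1 was higher at an unadjusted p under 0.05, 21 had a log2 fold change below 0, and the median was −0.02, to be read beside the same shares of all tested genes (5.78% lower, 4.71% higher and 46.6% below 0). The 1 gene was Prkaca, the catalytic subunit of protein kinase A, which phosphorylates GRIA1, with 131 ± 16.4 CPM in KO and 114 ± 21.3 in WT (0.19 ± 0.07, edgeR, adjusted p = 0.405). The next 4 by p were Prkca, a kinase acting on the GRIA2 tail (−0.24 ± 0.11), the motor gene Kif5b (−0.15 ± 0.07), the vesicle calcium sensor Syt1 (−0.24 ± 0.12) and Napa, which acts on SNARE complexes (0.15 ± 0.08), with adjusted p-values between 0.497 and 0.515. The scaffolds that bind the tails shown above, named for that reason and not by p, had log2 fold changes of −0.03 ± 0.05 for Grip1, 0.02 ± 0.07 for Pick1, −0.07 ± 0.07 for Dlg1, which encodes SAP97, and −0.10 ± 0.08 for Dlg4, which encodes PSD-95 (edgeR, adjusted p-values from 0.677 to 0.930). For both lists the adjusted count was 0 in all 23 alternatives. The counts of genes lower at an unadjusted p under 0.05 were not stable and ranged from 0 (without a surrogate variable, among others) to 5 (with DESeq2 or without WT4) for the first list and from 0 to 4 (with a lane term) for the second. Of all tested genes, 1.65% were lower by that rule without a surrogate variable, 5.91% with DESeq2, 6.35% without WT4 and 6.79% with a lane term.

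Of the marker genes, those with an unadjusted p under 0.05 were the vesicular glutamate transporter Slc17a7 (97.9 and 118 CPM, −0.32 ± 0.11, edgeR, adjusted p = 0.382), the dentate gyrus marker Prox1 (0.35 ± 0.15) and the proliferation gene Top2a (80.4 and 56.5 CPM, 0.48), all 3 named after their values were seen. Over their whole lists, 7 of the 11 glutamatergic markers were below 0 (median −0.03), 7 of the 10 hippocampal markers were below 0 although Prox1 was above it (median −0.09), and 2 of the 8 progenitor markers were below 0 (median 0.04). In the lists with no gene under 0.05, 3 of 10 interneuron markers were below 0 (median 0.25), as were 2 of 10 astrocyte markers (median 0.08), 3 of 6 tested oligodendrocyte precursor markers (median −0.01) and 1 of 8 tested microglia markers (median 1.31). These tallies stand beside 46.6% of all tested genes below 0, and the calls beside 5.78% lower and 4.71% higher at an unadjusted p under 0.05. The astrocyte gene Gfap, named after its values were seen, had 7.12 to 235 CPM in the KO libraries and 9.90 to 56.7 CPM in the WT libraries. The part of these cell types in the values of Gria2 and Cnih3 was not tested.

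**Figure D5:**
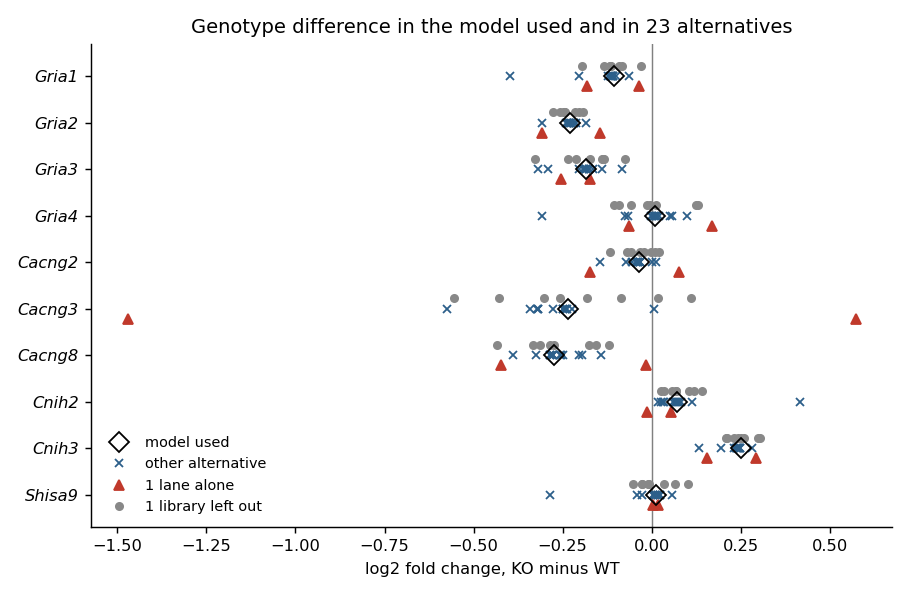
Log2 fold change of KO against WT for each gene in the model used (diamond) and in 23 alternatives (grey circles, 1 library left out; red triangles, 1 lane alone; blue crosses, the others). All values of Gria1, Gria2, Gria3 and Cacng8 lie below 0 and all of Cnih3 above it, and Cacng3 reaches from −1.47 on lane A to 0.57 on lane B.

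The direction held in all 23 alternatives for Gria1, Gria2, Gria3, Cacng8 and Cnih3. These fits reused the same libraries, so they were not independent of each other. Gria2 had an unadjusted p under 0.05 in 17 of them and Cnih3 in 18, and the adjusted p of Gria2 ranged from 0.0510 to 1. With 1 library left out the Gria2 log2 fold change lay between −0.28 and −0.19, and its unadjusted p was under 0.05 in 7 of these 8 fits, all but the one without KO2. The number of members lower in KO at an unadjusted p under 0.05 was 0 without a surrogate variable (1.65% of all tested genes), and in further fits that also had none it was 0 without KO1 and WT1 (2.45%), 0 on lane A (0.462%) and 2 on lane B (5.6%). The count was 3 with 2 surrogate variables (8.14%) and 3 without WT3 (8.76%).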

How the data were processed

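Poly-A RNA of 4 KO and 4 WT neuron cultures was analysed. The deposited values were raw counts of uniquely aligned reads per Ensembl gene, made by the authors by trimming with Cutadapt 1.10 (reads under 40 bp removed), discarding ribosomal reads, alignment to mm10 with STAR 2.5.3a and HTSeq-count 0.6.1p1 in union mode on Ensembl release 92. Use of strand is not stated, and read length and layout differ between the labels and the methods. Replicates were not pooled. A read that overlaps 2 genes is left uncounted in union mode.

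Genotype, replicate number and lane were taken from the labels. Symbols came from an Ensembl to symbol table and RefSeq (23260 identifiers matched), GRCm38 positions from RefSeq, and exon lengths and sequences from GENCODE M1 (NCBIM37), whose coordinates were not used. The test was run with edgeR 4.0.16 (R 4.3.3): filterByExpr by genotype, TMM scaling, a robust quasi-likelihood F test with 1 surrogate variable from svaseq (sva 3.50.0) and Benjamini-Hochberg adjustment over all tested genes at 0.05. The SE is the absolute log2 fold change over the square root of F. Alternatives were other numbers of surrogate variables, lane, strain label or replicate number as a term, other scalings and filters, DESeq2 1.42.0, limma-voom (limma 3.58.1), each lane alone and left-out libraries, 23 in all. The surrogate variable was estimated again with 1 library or KO3 and WT4 left out. The fits of 1 lane, without KO1 and WT1, and with a strain label or replicate number term had none. Named genes were all 10 members, Nuak1, in each of the 2 other receptor lists the 5 tested genes with the smallest p, the most abundant gene of each marker list and defining markers under 1 CPM, Xist and Ddx3y; others are named as chosen later or as values beside a result. The members and lists were chosen with earlier results of these data known. Of 137 list genes 135 had an identifier, 5 of them through a RefSeq synonym. The procedure was tested on simulated data whose changes were larger than those of the 10 members in the model used, so power at their size was not examined.

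At 31247078 to 67155004 counts per library, the least abundant member had over 200 counts in every library, so counting error was small beside the spread between libraries. Replicate p-values measure the spread between libraries of 1 genotype that is left after the other terms of the model, in most fits the surrogate variable. For Gria2 the SE was 0.16 without that variable and 0.07 with it.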

Additional observations from a re-analysis of the deposited data

How the results depend on the processing

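Of the 16272 tested genes, 8 passed the adjusted threshold, against 4 without a surrogate variable and, in fits that also had none, 1 with a strain label term, 0 on lane A alone (edgeR, where 96 genes had an unadjusted p under 0.05), 99 on lane B alone and 3 without KO1 and WT1. With a surrogate variable it was 17 with 2 of them, 15 with a lane term, 49 with no filter, 165 with DESeq2, 3 without KO3 and WT4, and 3 to 114 with 1 library left out, the highest without WT3. None of the 10 genes passed it except Gria3 without WT3 (−0.33), so the count with 1 library left out was 0 to 1. The count of members lower in KO at an unadjusted p under 0.05 was 1, and it was 0 without a surrogate variable, and in fits that also had none 0 with a strain label term, on lane A and without KO1 and WT1 and 2 on lane B. It was 0 without KO3 and WT4, 3 with 2 surrogate variables, and 0 to 3 with 1 library left out (0 without KO2, 2 without KO3, 3 without WT3). Of all tested genes, the same rule called 4.55% without KO3 and WT4, 4.09% without KO2, 3.96% without KO3, 8.76% without WT3 and 1.43% with a strain label term. With the surrogate variable removed, 1 member no longer overlapped.

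With the replicate number as a block and no surrogate variable, 3 genes passed the adjusted threshold and Gria2 had −0.22 (edgeR, adjusted p = 0.661). In that fit 1 member was lower at an unadjusted p under 0.05, beside 4.38% of all tested genes. Deviations from the genotype mean correlated between same-numbered libraries at 0.79, 0.01, 0.24 and −0.01, so the numbers do not pair the samples, and not every library correlated best with its own number.

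Reversed signs (strain label, lane and KO1 and WT1 fits without a surrogate variable): Gria4 had −0.31 with a strain label term, −0.0015 with DESeq2 size factors, −0.063 on lane A, −0.066 without KO1 and WT1, −0.076 without KO3 and WT4 and −0.11 to 0.13 with 1 library left out. Cacng2 had 0.012 with 2 surrogate variables, 0.075 on lane B and −0.12 to 0.0196 with 1 library left out. Cacng3 had 0.006 with 2 surrogate variables, 0.57 on lane B and −0.55 to 0.11 with 1 library left out. Cnih2 had −0.014 on lane A. Shisa9 had −0.042 with 2 surrogate variables, −0.29 with a strain label term, −0.028 without KO3 and WT4 and −0.0525 to 0.10 with 1 library left out. The cause was not tested. With 2 libraries per genotype and lane, and strain labels nearly nested in genotype, the lane and strain label fits have few residual degrees of freedom.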
